A study of Rattus norvegicus with 6 samples.

Results

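The genes described here are the 24 mitochondrially encoded genes that make no protein: the 12S rRNA gene (ENSRNOG00000030478), the 16S rRNA gene (ENSRNOG00000043866) and 22 tRNA genes. They were taken as every row that the expression table places on the mitochondrial chromosome, 37 of 21986, less the 13 that code for mRNAs. The table pairs no Ensembl ID with a name. The identities of the 2 rRNA genes and of the 13 mRNAs come from a list of IDs made for this work, and the 22 tRNA genes are what remains. Which amino acid each tRNA carries is not known here, so the tRNA genes are referred to by their rank, from 1 to 22, in mean level over the control libraries.

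Kidney RNA was sequenced from 3 control and 3 FSGS samples of male Wistar rats, all of genotype WT per the labels. FSGS is focal segmental glomerulosclerosis, a scarring disease of the glomeruli, the filtering units of the kidney. The FSGS rats had lost the left kidney by surgery and then received adriamycin, an anthracycline drug, into the tail vein, a first dose of 5 mg/kg at day 7 after the operation and a second of 3 mg/kg at day 28. The control rats received saline and no operation is stated for them, so surgery and drug cannot be told apart; ages are not given. The titles of all 6 samples also carry the word untreated, against the treatment field. Nothing in the labels says that the samples are separate animals, so the p-values reflect the spread over these samples alone and part of that may be technical.

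The mitochondrial genome is copied into long RNAs from both of its strands, and the tRNAs, which lie between most of the other genes, are cut out of these precursors and thereby release the rRNAs and mRNAs. The 12S rRNA is the RNA of the small subunit of the mitochondrial ribosome and the 16S rRNA that of the large subunit; the tRNAs bring the amino acids to it. Kidney tubules are among the tissues richest in mitochondria. The libraries were made from RNA captured by its poly(A) tail with oligo(dT) beads. Mature mitochondrial tRNAs end in CCA rather than in a poly(A) tail, and the rRNAs carry only short tails, so the values below are those of whatever RNA from these genes passed that capture and cannot be read as total rRNA or tRNA.

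Levels are FPKM, fragments scaled to the length of the gene and to the total mapped in the library, as the authors deposited them. FPKM carries no read count, so the depth behind each value is unknown. The columns summed to 614047 to 691777 FPKM in controls and 754892 to 824403 in FSGS, without overlap. The 37 mitochondrial genes made up 316593 to 435328 FPKM of this in controls and 483251 to 591222 in FSGS. Scaling by the column sum therefore depends in large part on the mitochondrial genes themselves. Kidney cell type markers could not be matched to the table's IDs and were not analysed here; in bulk tissue, fewer cells of a type and less RNA per cell cannot be told apart. Changes are FSGS minus control on the log2(FPKM + 1) scale, and a change was called at a limma adjusted p under 0.05 over all 14139 genes tested. All 24 genes were above 0 in every library and passed the filter for testing.

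Both rRNA genes rose in FSGS, and so did 12 of the 22 tRNA genes; none of the 24 fell (by limma, 0 at an unadjusted p under 0.05 as well, where 16 were higher). Of all genes tested, 27.0% rose by the same test and 17.0% fell. The median log2 change was 0.64 over the 22 tRNA genes, 1.31 over the 2 rRNA genes, 0.40 over the 13 mitochondrial mRNAs and 0.11 over all genes tested. The changes of the tRNA genes ran from -0.24 to 2.16 on the log2 scale. The 3 FSGS values lay above all 3 control values in 14 of the 24 genes and below them in 0, against 34.6% and 21.0% of all genes tested. A rise with a log2 change of at least 1 was seen in 9 of the 24, against 8.63% of all genes tested.

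**Figure D1:**
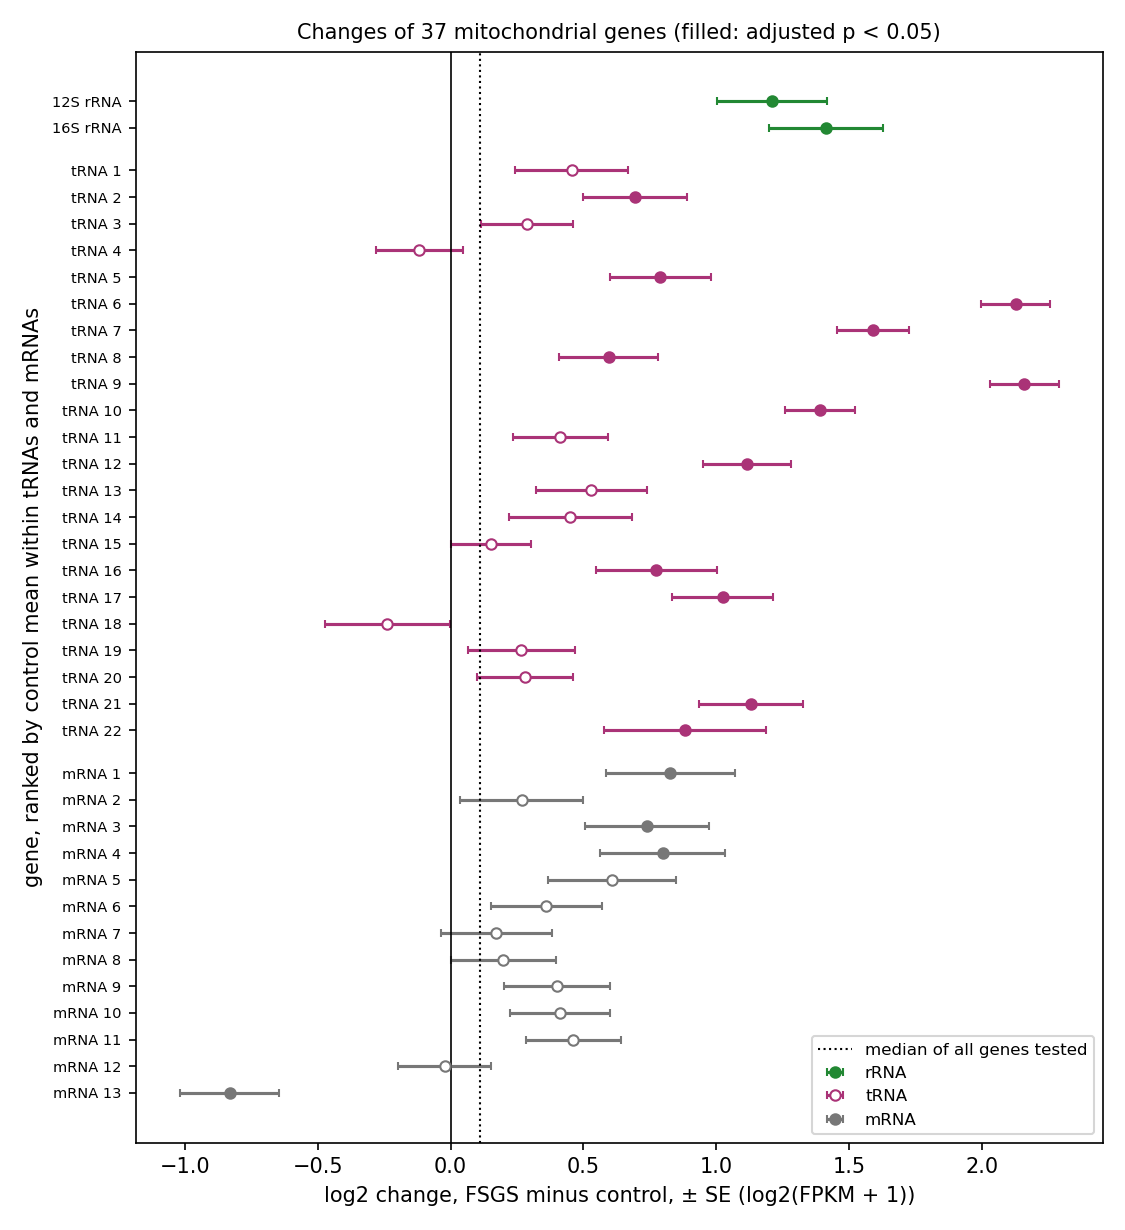
Log2 change, FSGS minus control, on the x axis with its limma standard error for the 2 rRNA genes, the 22 tRNA genes and the 13 mitochondrial mRNAs, ranked within tRNAs and mRNAs by control mean; filled points have an adjusted p under 0.05 and the dotted line is the median of all genes tested, 0.11. The tRNA genes of rank 6 and 9 lie farthest to the right, at 2.13 and 2.16.

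The rRNA of the small ribosomal subunit, 12S, stood at 558, 879 and 911 FPKM in controls 1, 2 and 3 and at 1659, 1818 and 1832 FPKM in FSGS 1, 2 and 3. Every FSGS library lay above every control, and control 1 was well below the other controls. The mean level went from 782 ± 195 to 1770 ± 95.8 FPKM (SD, n = 3 each), 2.26-fold, with a log2 change of 1.21 ± 0.21 (SE, limma adjusted p = 0.00181). Among all genes of the table ordered by mean FPKM, 12S moved from rank 38 in controls to rank 19 in FSGS. Without control 1 the log2 change was 0.98 (limma adjusted p = 0.00393).

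The rRNA of the large subunit, 16S, had 341, 561 and 555 FPKM in the 3 controls in order of number, again lowest in control 1. In FSGS 1, 2 and 3 it was at 1148, 1408 and 1240 FPKM, all above the controls. Its mean went from 485 ± 125 to 1265 ± 132 FPKM (SD, n = 3 each), 2.61-fold, with a log2 change of 1.41 ± 0.21 (SE, limma adjusted p = 0.000984), and its rank among all genes from 70 to 24. Without control 1 the log2 change was 1.18 (limma adjusted p = 0.00232).

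The rRNA genes were low next to the mRNAs of the same genome. On the FPKM scale, which accounts for gene length, 12S and 16S were below the least abundant of the 13 mRNAs, whose means were 5675 FPKM in controls and 3178 FPKM in FSGS, and the most abundant mRNA reached 64880 FPKM in controls. Of the 37 mitochondrial genes 12S was at rank 17 and 16S at rank 19 in controls, and at 16 and 17 in FSGS.

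The ratio of 16S to 12S within a library does not depend on how its column was scaled. Controls 1, 2 and 3 gave ratios of 0.611, 0.638 and 0.609, and FSGS 1, 2 and 3 gave 0.692, 0.775 and 0.677. The 2 rRNAs therefore kept nearly the same proportion in all controls, including control 1, and 16S took a larger part in each FSGS library. The mean ratio was 0.619 ± 0.0162 for controls against 0.714 ± 0.0526 for FSGS (SD, n = 3 each), a difference of 0.20 on the log2 scale (two-sided exact permutation p = 0.1, the smallest that 3 against 3 allows). Without FSGS 2, which had the highest ratio, the log2 difference was 0.14. Without any other single library it was 0.19 to 0.24.

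**Figure D2:**
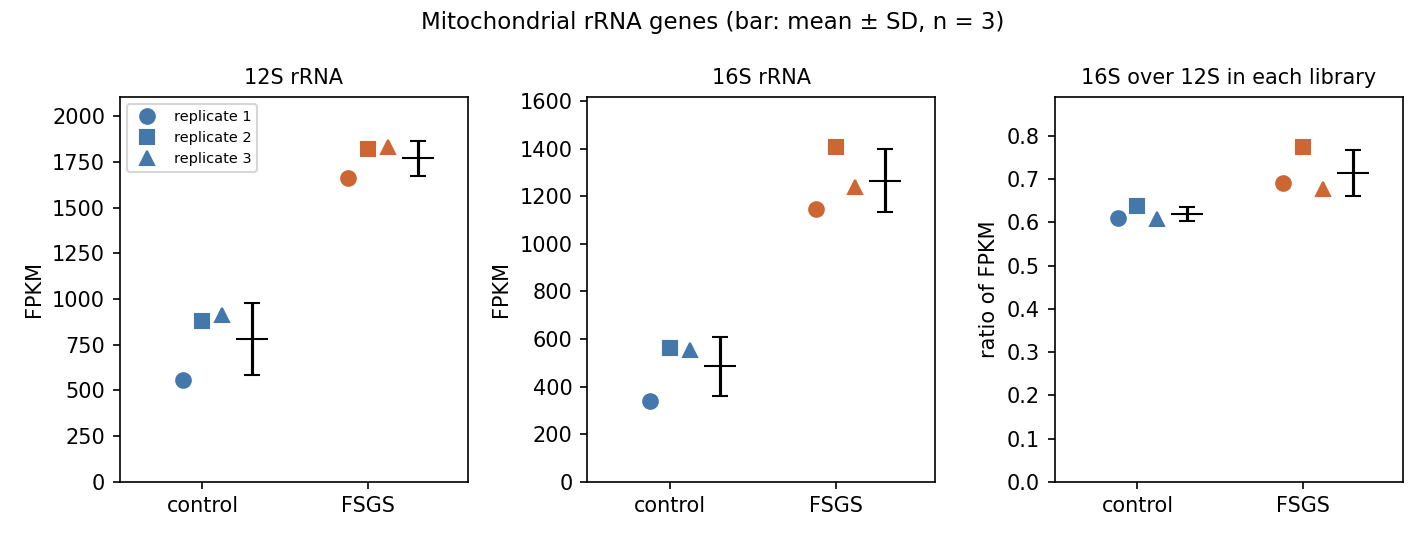
FPKM of 12S rRNA (left) and 16S rRNA (middle) and the ratio of 16S to 12S (right) in each library, with marker shapes for replicates and bars for the mean and SD (n = 3). In all 3 panels the FSGS points lie above the control points, and control 1 is the lowest for both genes but not for the ratio.

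The 22 tRNA genes differed far more among themselves than the mRNAs did. Their control means ran from 1.77 to 8827 FPKM, a 4987-fold range, against 11.4-fold over the 13 mRNAs. The tRNA gene of rank 1 alone made up 60.6% to 66.3% of the summed tRNA FPKM in controls and 53.6% to 57.9% in the FSGS libraries, and its control mean was 7.46-fold that of rank 2. Of the other genes, 1 more had a control mean of at least 1000 FPKM, 11 lay between 100 and 1000, 6 between 10 and 100, and 3 below 10. A tRNA gene is shorter than the inserts of the libraries, and how the authors' counting treated such genes, the reads of precursors that span neighbouring genes, or near-identical nuclear copies of mitochondrial DNA is not stated in the labels or the table.

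The order of the tRNA genes in the FSGS means followed that in controls with some exchanges (Spearman rho 0.956 across the 22 genes, which share their libraries and span a wide range of levels). Ranks 1 and 2 kept their places, while the gene of rank 6 in controls was at rank 3 in FSGS and that of rank 9 at rank 5. In the other direction, the gene of rank 4 went to rank 8 and that of rank 8 to rank 11. The number of tRNA genes among the 100 most abundant genes of the whole table was 5 in controls and 11 in FSGS.

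**Figure D3:**
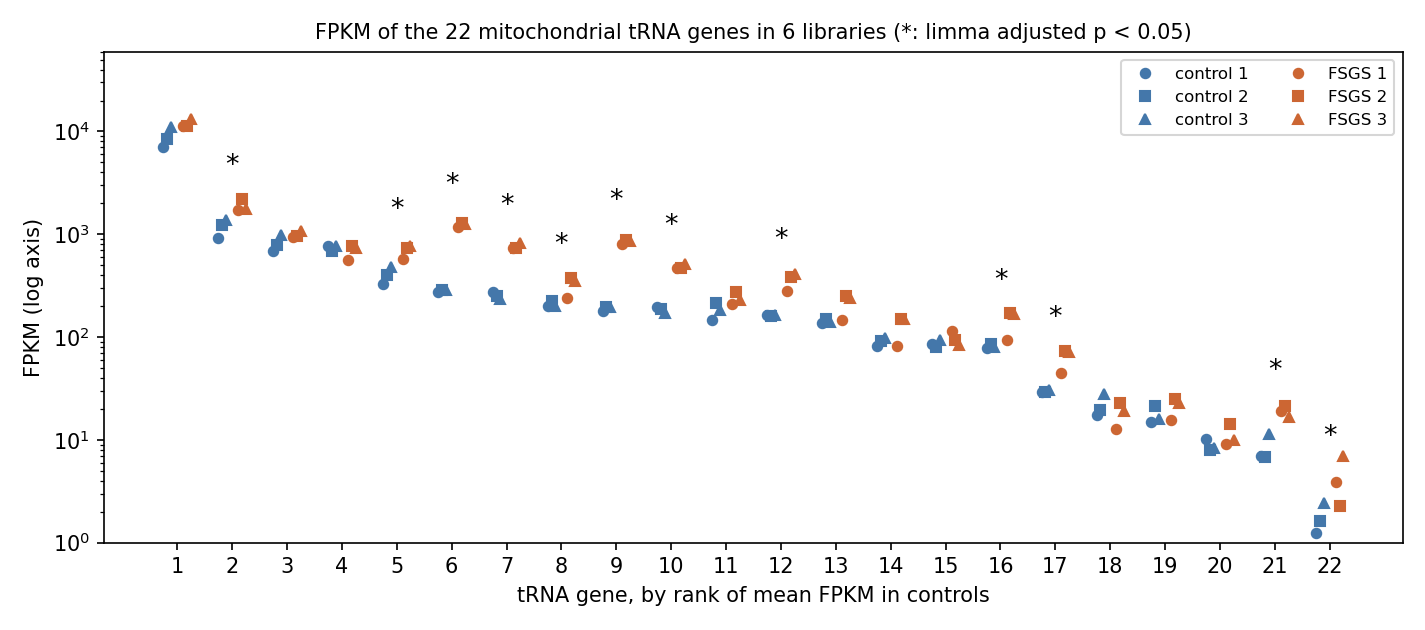
FPKM, on a log axis, of each of the 22 tRNA genes in the 3 control and 3 FSGS libraries, ordered by control mean; an asterisk marks a limma adjusted p under 0.05. The levels span from 1.23 FPKM (rank 22, control 1) to 13185 FPKM (rank 1, FSGS 3), and 12 of the 22 genes carry an asterisk.

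The most abundant tRNA gene did not pass the test. It was at 7068, 8478 and 10935 FPKM in controls 1, 2 and 3 and at 11237, 11416 and 13185 FPKM in FSGS 1, 2 and 3. The groups did not overlap, but control 3 was close to FSGS 1 (log2 change 0.46 ± 0.21 SE, limma adjusted p = 0.115). The gene of rank 2 rose, from 919, 1243 and 1389 FPKM in controls 1, 2 and 3 to 1735, 2197 and 1762 FPKM in FSGS 1, 2 and 3 (log2 change 0.69 ± 0.20 SE, limma adjusted p = 0.0202). Without control 1 its log2 change was 0.52 (limma adjusted p = 0.0662), and without FSGS 2 it was 0.58 (limma adjusted p = 0.0927), so that call rested on single libraries.

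The largest rises were in 4 tRNA genes of middle abundance, ranks 6, 7, 9 and 10, with means 2.63 to 4.49 times those of controls; the next highest fold among tRNA genes was 2.47, in the gene of rank 22. The rank 9 gene, ENSRNOG00000033932, was at 181, 194 and 194 FPKM in controls 1, 2 and 3 and at 809, 884 and 859 FPKM in FSGS 1, 2 and 3. The gap between the groups was many times the spread within either of them. Its log2 change was 2.16 ± 0.13 (SE, limma adjusted p = 1.70e-05), and it went from rank 255 to rank 34 among all genes of the table.

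The rank 6 gene, ENSRNOG00000032609, was at 273, 287 and 286 FPKM in controls 1, 2 and 3 and at 1178, 1275 and 1255 FPKM in FSGS 1, 2 and 3. Its log2 change was 2.13 ± 0.13 (SE, limma adjusted p = 1.88e-05), and it went from rank 144 to rank 25 among all genes. The change was close to that of the rank 9 gene. Both genes were taken for having the largest called rises, so a likeness in size is in part given by that choice. Dividing the level of the rank 9 gene by that of the rank 6 gene gave 0.661, 0.675 and 0.680 for controls 1, 2 and 3, against 0.687, 0.693 and 0.684 for FSGS 1, 2 and 3. The ratio thus lay within a narrow band in all 6 libraries, slightly higher in FSGS, while the means of these genes rose 4.49-fold and 4.38-fold. This difference in the ratio was not tested. Apart from rank 10 to rank 7, ratios of other tRNA genes were not computed, so how narrow their bands are is not known.

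The rank 7 gene was at 272, 252 and 235 FPKM in controls 1, 2 and 3 and at 729, 739 and 822 FPKM in FSGS 1, 2 and 3 (log2 change 1.59 ± 0.14 SE, limma adjusted p = 6.8e-05). The rank 10 gene was at 196, 186 and 172 FPKM in controls 1, 2 and 3 and at 469, 467 and 519 FPKM in FSGS 1, 2 and 3 (log2 change 1.39 ± 0.13 SE, limma adjusted p = 0.000106). The ratio of rank 10 to rank 7 was steady within each group but differed between the groups. It was 0.721 to 0.737 in controls and 0.631 to 0.644 in FSGS, lower in each FSGS library, so the rank 10 gene rose less. This difference was not tested. In contrast to the rRNA genes, control 1 was not low in the rank 7 or the rank 10 gene. All 4 genes of this group kept the call in each of the 19 alternatives run. The share of all genes tested that kept a call in all 19 was not computed.

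A further set of tRNA genes differed between the FSGS libraries themselves. In 8 genes, ranks 8, 12, 13, 14, 16, 17, 18 and 19, FSGS 1 was at least 1.3-fold below both FSGS 2 and FSGS 3; this held for 0 of the 13 mRNAs and for 3.96% of all genes tested. The set was picked after the values were seen. Without the 1.3-fold cut, FSGS 1 was the lowest FSGS library in 18 of the 22 tRNA genes, in both rRNA genes and in each of the 13 mRNAs. The share of all genes tested was not computed for this. FSGS 1 also had the lowest column sum of the FSGS libraries, 754892 FPKM. The 8 genes were thus set apart by the size of the gap and not by its direction. In these 8 genes FSGS 1 stood at 0.592 to 1.72 times the control mean and the other FSGS libraries at 0.882 to 2.53 times.

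The rank 16 gene, for example, was at 77.8, 85.3 and 79.5 FPKM in controls 1, 2 and 3 and at 93.0, 171 and 168 FPKM in FSGS 1, 2 and 3 (log2 change 0.77 ± 0.23 SE, limma adjusted p = 0.0231). FSGS 1 was thus much closer to the controls than to the other FSGS libraries. The rank 13 gene had the same shape, with 137, 151 and 140 FPKM in controls and 145, 252 and 239 FPKM in FSGS 1, 2 and 3, where FSGS 1 lay inside the control range (log2 change 0.53 ± 0.21 SE, limma adjusted p = 0.0689). Of the 8 genes 4 rose with all libraries in the fit. Over the 24 genes, 14 rose with FSGS 1 (27.0% of all genes tested) and 15 without it (21.3%).

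**Figure D4:**
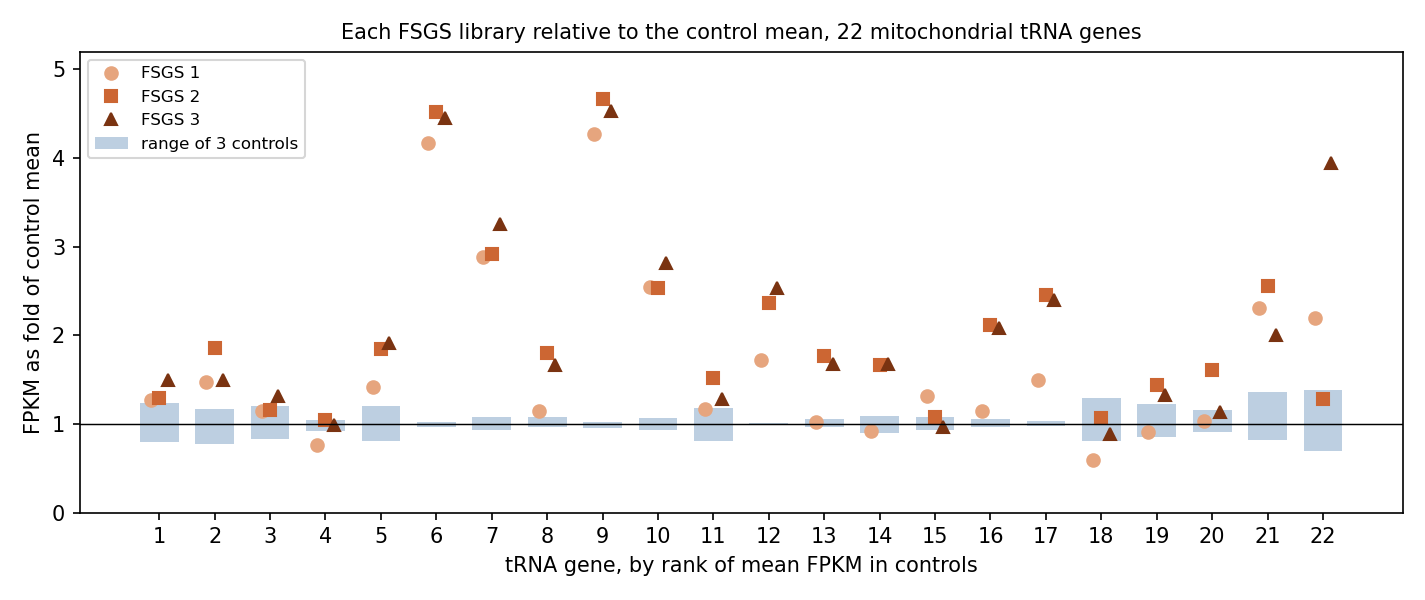
FPKM of each FSGS library divided by the control mean for the 22 tRNA genes ordered by control mean, with the range of the 3 controls as shaded bars. All 3 FSGS libraries lie together above 4-fold at ranks 6 and 9, while at rank 13 and rank 16 FSGS 1 stands apart from FSGS 2 and FSGS 3.

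The rank 12 gene had the tightest controls, at 163, 162 and 164 FPKM, and stood at 281, 383 and 411 FPKM in FSGS 1, 2 and 3 (log2 change 1.12 ± 0.17 SE, limma adjusted p = 0.000886). The rank 17 gene went from 29.5, 29.0 and 30.7 FPKM in controls to 44.6, 72.9 and 71.2 FPKM in FSGS 1, 2 and 3 (log2 change 1.02 ± 0.19 SE, limma adjusted p = 0.00280). In both genes all FSGS values were above all controls, FSGS 1 being the lowest of them. Ranks 5 and 8 also rose, by 0.79 and 0.59 on the log2 scale (limma adjusted p = 0.00981 and 0.0295). The call of rank 8 was lost without any 1 of control 1, control 3, FSGS 2 or FSGS 3 (limma adjusted p = 0.0746 to 0.119), and that of rank 16 without the same libraries (limma adjusted p = 0.0639 to 0.0829).

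At the low end, the rank 21 gene rose from 6.89, 6.79 and 11.3 FPKM in controls 1, 2 and 3 to 19.2, 21.2 and 16.6 FPKM in FSGS 1, 2 and 3 (log2 change 1.13 ± 0.20 SE, limma adjusted p = 0.00192). The rank 22 gene passed the test narrowly although its groups overlapped, with 1.23, 1.64 and 2.44 FPKM in controls and 3.89, 2.26 and 6.98 FPKM in FSGS 1, 2 and 3 (log2 change 0.88 ± 0.31 SE, limma adjusted p = 0.0432). Its call was lost without any 1 of controls 1, 2 and 3, FSGS 1 or FSGS 3 (limma adjusted p = 0.0530 to 0.131).

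The 10 tRNA genes that did not pass were ranks 1, 3, 4, 11, 13, 14, 15, 18, 19 and 20, with log2 changes of -0.24 to 0.53. The rank 4 gene was at 773, 682 and 764 FPKM in controls 1, 2 and 3 and at 565, 766 and 728 FPKM in FSGS 1, 2 and 3, which overlap (log2 change -0.12 ± 0.16 SE, limma adjusted p = 0.588). The rank 18 gene was at 17.3, 19.6 and 27.7 FPKM in controls and at 12.8, 23.0 and 19.0 FPKM in FSGS (log2 change -0.24 ± 0.24 SE, limma adjusted p = 0.443). These were the only 2 of the 24 genes with an estimate below 0 as deposited.

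How many of the genes rose depended on the scaling of the columns. Of the 22 tRNA genes 12 rose as deposited, when 27.0% of all genes tested did. With median-of-ratios scaling 7 rose (24.4% of all genes tested), after rescaling to TPM 7 (14.0%), with quantile normalization 15 (25.7%), and after rescaling over nuclear genes under 1000 FPKM 14 (41.6%). The median log2 change of all genes tested was 0.11 in the deposited values, 0.006 with median-of-ratios scaling, -0.12 with TPM, 0.006 with quantile normalization and 0.24 with the nuclear rescaling. Both rRNA genes and 7 tRNA genes, ranks 6, 7, 9, 10, 12, 17 and 21, rose under each of these 5 scalings. The calls of ranks 2, 5, 8, 16 and 22 did not hold in all 5. The share of all genes tested that rose under all 5 was not computed, so these counts have no background to be set against.

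The mitochondrial mRNAs are also cut from the long RNAs of both strands. Which strand each gene lies on was not examined here, so the mRNA sum does not stand for the precursor of any single gene. Of the 13 mRNAs, 3 rose and 1 fell as deposited. Relative to the summed FPKM of those 13 mRNAs, set equal in all libraries, 6 of the 24 genes rose and 2 fell, where 8.50% of all genes tested rose and 27.0% fell. The 6 were both rRNA genes and the tRNA genes of ranks 6, 7, 9 and 10; the log2 change relative to the mRNAs was 0.66 for 12S (limma adjusted p = 0.0149), 0.86 for 16S (0.00228), 1.57 for rank 6 and 1.61 for rank 9. The 2 that fell against the mRNA sum were rank 4, at -0.67 (limma adjusted p = 0.0233), and rank 18, at -0.76 (limma adjusted p = 0.0495). The other 16 genes did not pass this test, the gene of rank 1 among them at -0.10 (limma adjusted p = 0.630). Against the same sum, 2 of the 13 mRNAs themselves rose and 5 fell. The sum is weighted to the most abundant mRNAs and does not stand for each of them.

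Summed over the 2 genes, rRNA came to 2.95, 4.25 and 3.51 FPKM per 1000 FPKM of mRNA in controls 1, 2 and 3 and to 6.09, 6.20 and 5.43 in FSGS 1, 2 and 3. For the 22 tRNA genes the corresponding sums were 38.4, 40.2 and 39.5 in the 3 controls, and in the 3 FSGS libraries they were 42.3, 40.9 and 40.3. Most of the tRNA sum is the gene of rank 1, whose FSGS mean was 1.35-fold that of controls against 1.46-fold for the mRNA sum. The other 21 tRNA genes together came to 15.1, 15.2 and 13.3 in the 3 controls, and to 17.9, 19.0 and 17.0 in the 3 FSGS libraries. The groups did not overlap in any of these sums, but in the tRNA sum the gap between the highest control and the lowest FSGS library was small. The 24 genes made up 3.97% to 4.26% of all mitochondrial FPKM in controls and 4.37% to 4.62% in FSGS. This is a share of values already divided by gene length and not one of reads.

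**Figure D5:**
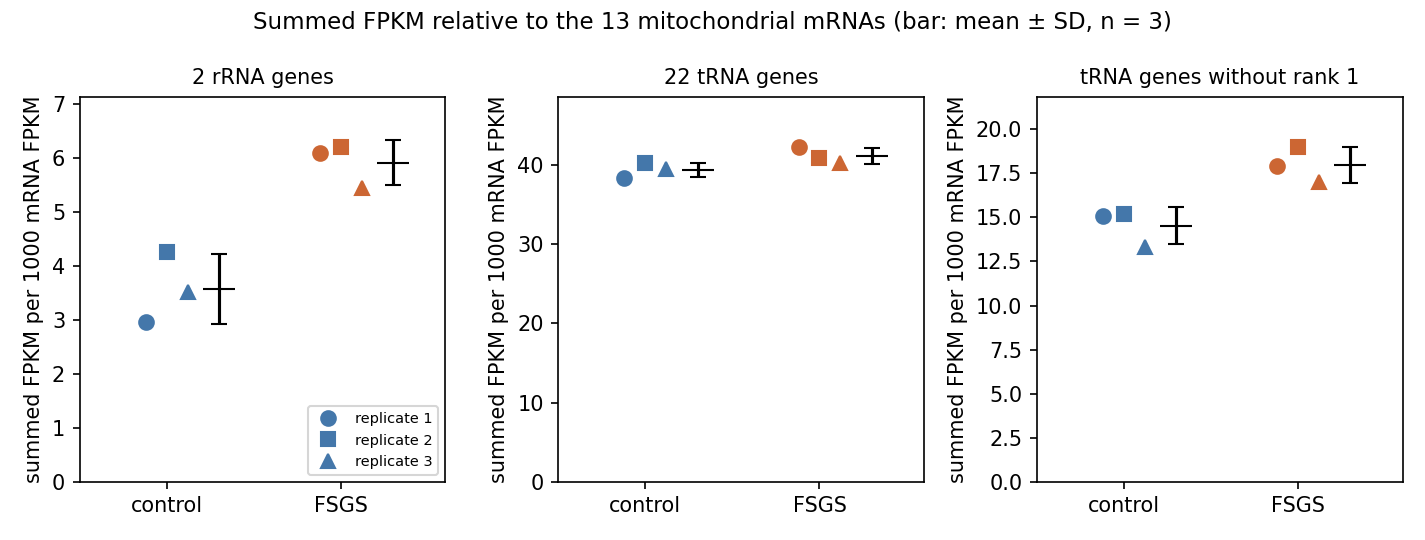
Summed FPKM of the 2 rRNA genes (left), the 22 tRNA genes (middle) and the 21 tRNA genes without rank 1 (right), per 1000 FPKM of the 13 mitochondrial mRNAs in each library, with bars for the mean and SD (n = 3). The rRNA sum goes from 3.57 ± 0.652 to 5.91 ± 0.414, while the sum over all tRNA genes goes only from 39.4 ± 0.939 to 41.2 ± 1.04.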

How the data were processed

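Per the labels' protocols, mRNA was purified on oligo(dT), its second cDNA strand was labelled with dUTP, and both ends of each fragment were read. Tools named in the submitters' processing notes, none with a role, are cutadapt (1.9), HISAT2 (2.2.1), StringTie (2.1.6), edgeR and DESeq2; build, annotation and use of strand are not given. The authors' deposited unit is FPKM, by the column headers, with 2 decimals. Whether the deposited values keep reads of a gene apart from those of its antisense partner is therefore unknown.

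Genes with a mean of at least 0.5 FPKM, 14139 of 21986, were tested on log2(FPKM + 1) by limma 3.58.1 in R 4.3.3 with a mean-variance trend and group alone, with Benjamini-Hochberg adjustment over all of them. On simulated data for this comparison (14139 genes, 200 changed) 71% of log2 changes of 1 and 95% of those of 2 were called, with 11 false calls. The changed genes were drawn from those with a control mean above 2 on the log2(FPKM + 1) scale, and the noise was independent between genes. In the deposited values far more genes were called, 27.0% up and 17.0% down. The simulated rates therefore do not carry over to these data or to the lowest tRNA genes. The ratio of 16S to 12S had a two-sided exact permutation test. The ratios of 1 tRNA gene to another were not tested. The members and lists were chosen with earlier results of these data known. By the naming rule, the 2 tRNA genes with the largest called rise, no overlap between groups and at least 5 FPKM in the higher group are given by ID; other tRNA genes described in detail were chosen after their values were seen. The RefSeq gene table (GRCr8) held an Ensembl ID in 0 rows, so lists by symbol were not analysed here. Alternatives were pseudocounts, filters, scalings, limma options, the replicate number as a block and leaving out libraries.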

Additional observations from a re-analysis of the deposited data

How the results depend on the processing

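Both rRNA genes and the tRNA genes of ranks 6, 7, 9 and 10 rose in all 19 alternatives run, a count for which the share of all genes tested was not computed. Other counts moved. Of the 24 genes, 9 rose with median-of-ratios scaling, 9 with TPM and 6 relative to the mRNA sum, where 2 fell; of the tRNA genes alone these numbers were 7, 7 and 4, with 2 falling. Leaving out single libraries gave 10 to 15 rising genes of the 24 (10 without control 1, 11 without FSGS 2 and without FSGS 3) and 8 to 13 rising tRNA genes. Of all genes tested, 27.0% rose with every library, 22.6%, 20.5% and 25.2% without control 1, FSGS 2 and FSGS 3, and 20.8% without control 3. Without control 1 and FSGS 1 together, an alternative chosen after seeing the data, 14 of the 24, 0 mRNAs (3 at an unadjusted p under 0.05 by limma) and 2430 of all genes (17.2%) rose. Rising mRNAs, 3 as deposited, numbered 1 with pseudocount 0.1, 5 with pseudocount 5, 6 at a mean of at least 5 FPKM, 6 without the trend, 5 with the robust option, and 0 to 5 leaving out single libraries (0 without FSGS 2 or FSGS 3, 2 each at an unadjusted p under 0.05 by limma; 5 without control 3). They numbered 0, also at an unadjusted p under 0.05 by limma, with no filter, with median-of-ratios scaling and with the nuclear rescaling. Falling mRNAs, 1 as deposited, numbered 2 with quantile normalization, 5 relative to the mRNA sum, and 0 with no filter and with the nuclear rescaling (1 each at an unadjusted p under 0.05 by limma). Over all genes, 2068 rose and 1604 fell at a mean of at least 5 FPKM, where fewer genes were tested; 2072 rose with TPM, 5878 with the nuclear rescaling, and 1203 rose and 3823 fell relative to the mRNA sum. With the replicate number as a block, 16 of the 24, 14 tRNA genes, 5 mRNAs and 29.4% of all genes tested rose. Deviations from the group mean correlated at 0.13, 0.03 and 0.02 between libraries of the same number, and control 2 correlated more with FSGS 3 (0.09) than with its own number, so the numbers were not taken as pairs. The cause was not tested for any of these. Depth is unknown, and with it the limit it sets on the lowest tRNA genes.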
